A study of Mus musculus with 16 samples.

Results

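The glycolysis and hypoxia response genes described here are 32 listed genes: glucose and lactate carriers, the enzymes that break glucose down to lactate, a kinase that closes the mitochondrial entry for pyruvate, the hypoxia-inducible factor HIF-1 alpha with its hydroxylases, and further genes known to respond to low oxygen. They were found by symbol among the genes that the arrays measured, and 27 of the 32 were present, out of 22180 genes in all. The enzymes Gpi1 and Eno1 were not analysed here. Aldoa, Bnip3l and Ankrd37 were read only by probe sets (the groups of array probes summarised to 1 value) that carry several gene names, and were left out.

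RNA came from mouse group 2 innate lymphoid cells (ILC2s), lymphocytes of barrier tissues that make type 2 cytokines when they receive alarm signals such as interleukin-33 (IL-33). Lung ILC2s were taken from naive mice (2 arrays) and from mice given IL-33 by the intranasal route, at day 4 (3 arrays), week 2 (3 arrays) and 4 months (2 arrays). ILC2s from the lymph node that drains the lung (mediastinal lymph node, mLN) were sampled at day 4 and week 2, with 3 arrays each and no naive node sample. The labels give the strain C57BL/6J for the lung samples alone, and give no genetic change, sorting markers or age for any group. They call the samples biological replicates without saying whether separate mice or pools were used, so the p-values measure the spread between these samples. The series asks how naive, effector and memory-like ILC2s differ, and whether node and lung cells differ.

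Glycolysis converts glucose to pyruvate in the cytosol with a small yield of energy, and lactate dehydrogenase then turns pyruvate to lactate, so that the pathway can run on without oxygen. HIF-1 alpha is a transcription factor that prolyl hydroxylases mark for destruction while oxygen is present. When the hydroxylases slow down, HIF-1 alpha builds up and binds DNA at a short core sequence near many glycolysis genes. In activated lymphocytes, growth and antigen or cytokine signals are also known to raise this programme at normal oxygen, partly through translation and stability of the HIF-1 alpha protein, which RNA arrays do not measure.

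Values are log2 signals, so a difference of 1 is a 2-fold difference in signal. Levels of different genes are not compared, since each probe set has its own brightness. Gene differences were tested with limma, and a gene is called when its Benjamini-Hochberg adjusted p, taken over all 22180 genes, is under 0.05. Over the 16 arrays the members' mean signal ran from 3.08 (Pfkfb4) to 10.69 (Gapdh). Of the 27 members, 11 lay in the brightest 25% of all genes and 3 lay under the 50th percentile.

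Some arrays stood apart from the rest. The interquartile range of log2 signal was 2.35 to 2.64 on the 4 naive and 4-month arrays and 2.92 to 3.06 on the other 12. Replicates correlated at 0.937 in the naive group and 0.947 at 4 months, and at 0.977 or more elsewhere. The 12 ILC2 markers, among them Gata3, Rora and Il7r, averaged 8.96 to 9.66 on every array. The mean of 13 measured macrophage markers (of 14) was highest in day 4 lung replicates 1 (6.08) and 2 (6.10) and in week 2 lung replicate 3 (5.38), and lay at 3.35 to 4.82 on the other 13 arrays. The mean of 9 measured T cell markers (of 12) was between 4.66 and 5.07 except on the naive arrays, where it was 6.35 and 6.64. Neutrophil and eosinophil markers (7 measured) averaged 5.24 in naive replicate 1 but 3.70 in replicate 2. For the 4-month pair their means were 5.45 and 5.05. Day 4 lung arrays gave 5.12, 4.91 and 3.54, week 2 lung arrays 3.97, 3.63 and 4.68, and node arrays 3.05 to 3.34. In the lung comparisons 0 of these 7 markers were called, and the part of such RNA in the differences was not tested. In bulk samples such as these, fewer cells of a type and less RNA per cell cannot be told apart.

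**Figure D1:**
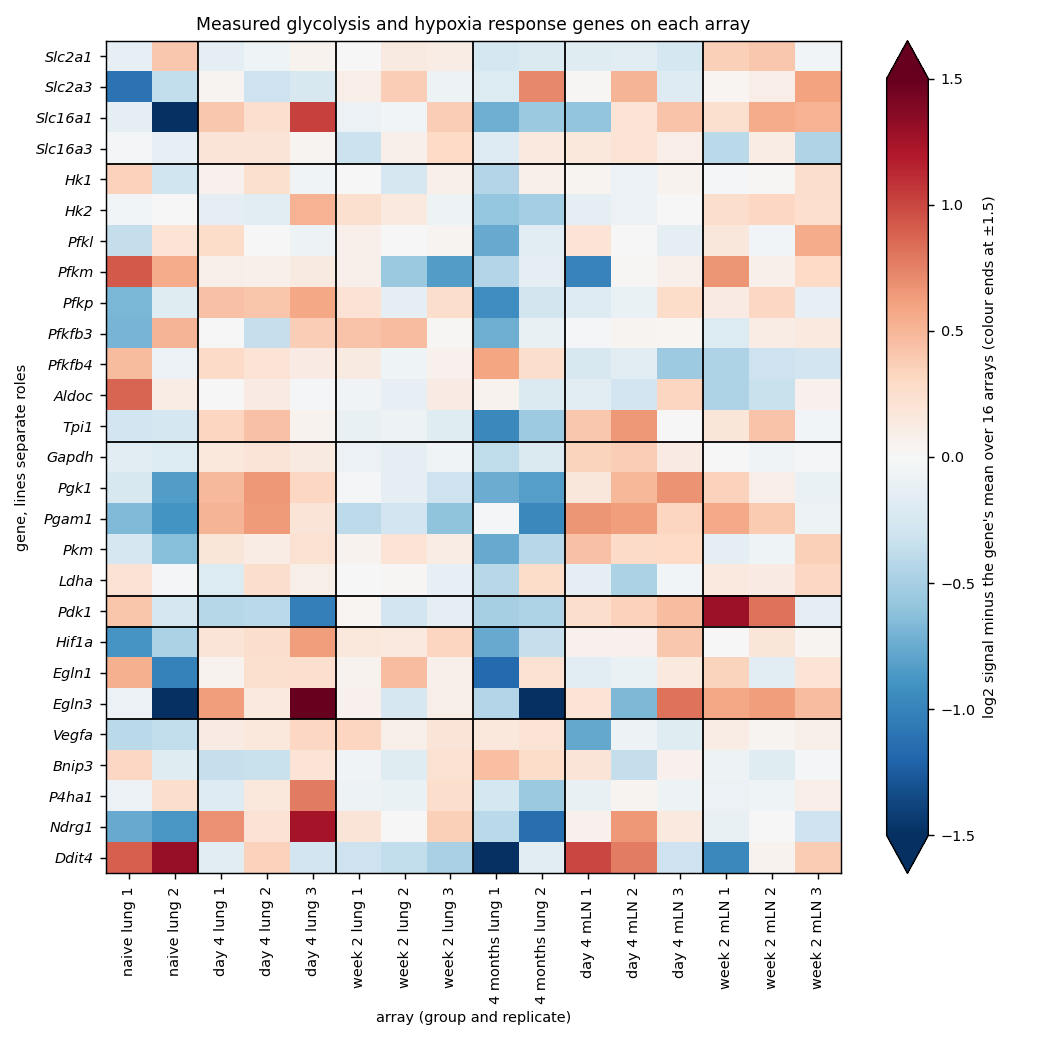
Log2 signal of the 27 measured genes (vertical axis, grouped by role) on each of the 16 arrays (horizontal axis), as the difference from the gene's own mean over all arrays. Lines separate roles and groups, and the colour ends at a difference of 1.5. Ndrg1, Hif1a, Pgk1 and Pgam1 were above their means on the 3 day 4 lung arrays and below them on the naive arrays, while Ddit4 was higher on both naive arrays than on the other lung arrays.

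At day 4 after IL-33, 9 of the 27 members (33.3%) rose in lung ILC2s compared with naive lung ILC2s, and 0 fell. Over all genes 10.8% were called higher and 5.73% lower, and in the brightest 25% of genes 28.0% were called higher and 2.65% lower. With array medians set equal the shares over all genes were 12.7% and 3.43%, and the same 9 members were called. Of the 11 members in the brightest 25% 5 were called, and of the 16 dimmer members 4 (Slc16a1, Egln3, Vegfa and Ndrg1), where 5.13% of the 16635 dimmer genes were called higher. The median log2 change was 0.21 over the members, -0.06 over all genes and 0.39 over the brightest 25%. The members that rose were the lactate carrier Slc16a1, the phosphofructokinase Pfkp, the lower glycolysis enzymes Pgk1, Pgam1 and Pkm, HIF-1 alpha itself (Hif1a), its hydroxylase Egln3, the growth factor gene Vegfa and the stress-responsive gene Ndrg1. A further 4 members had an unadjusted p under 0.05 without being called: Tpi1 and Gapdh with positive differences, Pdk1 and Ddit4 with negative ones. Without naive replicate 2, 4 members were called higher (Hif1a, Ndrg1, Pfkp and Pgam1) and Aldoc was called lower.

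The promoters of 5 members are shown because they carry the pattern in different ways: Pgk1, Slc16a1 and Hif1a were called higher at day 4, Ddit4 was called lower at week 2, and Ldha was called in no comparison. Each line gives the 250 bases before the most 5′ start of the gene, on the gene's own strand, from RefSeq on build GRCm38.p6. Capitals mark the letters ACGTG or GCGTG, the core of the HIF binding site, on either strand, so that CACGT and CACGC are the same letters read on the other strand and CACGTG holds 2 overlapping matches.
Pgk1 (chrX:106186850-106187099, plus strand): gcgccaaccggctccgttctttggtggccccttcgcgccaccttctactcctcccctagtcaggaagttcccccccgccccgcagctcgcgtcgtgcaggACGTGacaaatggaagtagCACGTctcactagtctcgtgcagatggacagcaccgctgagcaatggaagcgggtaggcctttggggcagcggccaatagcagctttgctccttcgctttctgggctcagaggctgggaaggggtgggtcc
Slc16a1 (chr3:104638414-104638663, plus strand): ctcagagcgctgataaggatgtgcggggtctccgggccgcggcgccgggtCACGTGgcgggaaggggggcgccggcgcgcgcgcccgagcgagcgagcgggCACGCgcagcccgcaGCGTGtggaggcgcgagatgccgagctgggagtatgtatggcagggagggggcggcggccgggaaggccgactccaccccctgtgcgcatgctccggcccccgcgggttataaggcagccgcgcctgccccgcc
Hif1a (chr12:73907617-73907866, plus strand): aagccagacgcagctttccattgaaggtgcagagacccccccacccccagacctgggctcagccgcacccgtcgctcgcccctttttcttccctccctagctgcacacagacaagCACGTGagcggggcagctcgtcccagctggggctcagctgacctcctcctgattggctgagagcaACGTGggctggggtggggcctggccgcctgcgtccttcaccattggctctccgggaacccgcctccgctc
Ddit4 (chr10:59951771-59952020, minus strand): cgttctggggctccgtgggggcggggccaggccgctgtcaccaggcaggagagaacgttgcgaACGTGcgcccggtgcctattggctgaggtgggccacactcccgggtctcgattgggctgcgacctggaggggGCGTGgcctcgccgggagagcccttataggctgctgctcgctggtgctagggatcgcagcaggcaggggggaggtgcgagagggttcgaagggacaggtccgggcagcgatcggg
Ldha (chr7:46845554-46845803, plus strand): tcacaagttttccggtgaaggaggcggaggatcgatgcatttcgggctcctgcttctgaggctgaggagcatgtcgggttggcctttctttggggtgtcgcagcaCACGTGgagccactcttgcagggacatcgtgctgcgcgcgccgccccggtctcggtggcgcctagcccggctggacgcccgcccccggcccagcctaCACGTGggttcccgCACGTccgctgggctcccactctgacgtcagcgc

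These 5 windows hold between 2 matches (Pgk1 and Ddit4) and 5 matches (Ldha), with 3 in Hif1a and 4 in Slc16a1. In Pgk1 the matches begin 150 and 131 bases before the start. RefSeq promoters were matched for 25 of the 27 measured members, all except Slc2a3 and Ndrg1. At least 1 match was present in 21 of the 25 (84%), compared with 38.6% of all 27025 promoters in the table and 43.9% of those of 17491 protein-coding genes. Among the members called higher at day 4 it was 6 of 8 (75%), and among the others 15 of 17 (88.2%). The list was drawn up from pathways with known HIF targets, and a match describes the letters alone.

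The carriers divided. Slc16a1, which moves lactate and pyruvate across the cell membrane, read 4.71 and 3.00 in naive lung and 5.25, 5.09 and 5.87 in day 4 lung. Its signal was 4.75, 4.80 and 5.21 at week 2, 4.11 and 4.29 at 4 months, 4.25, 5.05 and 5.27 in the day 4 node and 5.08, 5.40 and 5.36 in the week 2 node. All day 4 lung arrays were above both naive arrays, which themselves differed widely. The log2 difference was 1.55 ± 0.39 (SE; 2.92-fold; adjusted p = 0.0124, limma), and leaving out naive replicate 2, the lowest array, ended the call with a difference of 0.70. The glucose carriers Slc2a1 and Slc2a3 and the lactate exporter Slc16a3 were called in no comparison. Slc2a1 differed by -0.19 ± 0.19 between day 4 and naive lung, with overlapping groups.

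In the upper part of the pathway, where glucose is phosphorylated and split, 1 of 9 measured members rose at day 4. Pfkp, 1 of 3 phosphofructokinase genes, which catalyse the committed step, read 6.58 and 7.08 in naive lung, 7.70, 7.68 and 7.84 at day 4, 7.48, 7.13 and 7.53 at week 2 and 6.33 and 6.99 at 4 months. In the node it read 7.07, 7.16 and 7.54 at day 4 and 7.39, 7.57 and 7.14 at week 2. The day 4 lung arrays were the highest of the 16 and lay close together. Pfkp rose by 0.91 ± 0.23 at day 4 (adjusted p = 0.0145, limma), and the call was lost without naive replicate 1, when the difference was 0.66. The muscle-type isoform Pfkm went the other way and was dim, with 4.63 and 4.26 in naive lung, 3.80, 3.78 and 3.84 at day 4, 3.78, 3.15 and 2.87 at week 2 and 3.27 and 3.56 at 4 months. Its node values were 2.71, 3.72 and 3.79 at day 4 and 4.37, 3.79 and 4.01 at week 2. Both naive arrays were above every other lung array, but the day 4 difference of -0.64 ± 0.31 was not called. The hexokinases Hk1 and Hk2, the liver-type Pfkl, the regulators Pfkfb3 and Pfkfb4 and the aldolase Aldoc were also not called between day 4 and naive.

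Tpi1, the isomerase that joins both products of the aldolase step, read 6.17 and 6.19 in naive lung and 6.78, 6.90 and 6.51 at day 4, so the groups did not overlap. The day 4 difference was 0.55 ± 0.22 (adjusted p = 0.0926, limma) and was not called. Later lung values were 6.35, 6.38 and 6.28 at week 2 and 5.49 and 5.91 at 4 months, and node values were 6.86, 7.11 and 6.45 at day 4 and 6.64, 6.89 and 6.42 at week 2. The 4-month arrays were the lowest of all 16.

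Of the 5 measured lower glycolysis members, 3 rose at day 4. Pgk1, which makes the first ATP of the pathway, read 7.45 and 6.86 in naive lung, 8.18, 8.35 and 8.0 at day 4, 7.66, 7.55 and 7.38 at week 2, and 6.95 and 6.87 at 4 months. The node arrays read 7.87, 8.19 and 8.37 at day 4 and 8.04, 7.80 and 7.60 at week 2. The day 4 groups of both tissues had the highest means and the 4-month arrays were at the level of the lower naive array. The day 4 rise was 1.02 ± 0.22 (2.03-fold; adjusted p = 0.00456, limma), and it was lost without naive replicate 2 (a difference of 0.72). Pkm, the pyruvate kinase, rose by 0.62 ± 0.19 (adjusted p = 0.0377), a call that was lost in 6 of the 16 fits that left out 1 array, those without naive replicate 2 and without each day 4 lung array among them.

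The brighter of 2 probe sets named Pgam1, for phosphoglycerate mutase, read 5.84 and 5.60 in naive lung, 7.01, 7.14 and 6.70 at day 4, 6.11, 6.21 and 5.90 at week 2, and 6.47 and 5.54 at 4 months. In the node it read 7.16, 7.13 and 6.82 at day 4 and 7.07, 6.90 and 6.43 at week 2. Day 4 exceeded naive by 1.23 ± 0.26 (adjusted p = 0.00441, limma) with all 3 arrays above both naive ones. The other probe set named Pgam1 read 5.48 and 4.67 in naive lung and 4.32, 4.40 and 5.06 at day 4, and with the mean of both probe sets the call was lost. Pgam1 is therefore uncertain, and which probe set reads the gene was not tested.

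Gapdh, the dehydrogenase often used as a reference gene, is named by 3 probe sets of its own and by 8 more that also name Gm12070 or Gapdh-ps15, and whether its reading holds signal from such copies was not tested. The brightest read 10.53 and 10.49 in naive lung, 10.85, 10.88 and 10.83 at day 4, 10.61, 10.55 and 10.64 at week 2 and 10.31 and 10.47 at 4 months. Its node values were 11.03, 11.06 and 10.81 at day 4 and 10.70, 10.64 and 10.68 at week 2. The naive, week 2 and day 4 lung groups stood in that order without overlap, but the difference from naive to day 4, 0.35 ± 0.16, was not called (adjusted p = 0.137, limma). With the mean of its 3 probe sets Gapdh was called higher at day 4 than in naive lung, beside 10.8% of all genes. Ldha, the lactate dehydrogenase subunit that is a standard HIF-1 target and whose promoter holds 5 matches above, differed by -0.05 ± 0.22 between day 4 and naive lung, with overlapping groups. Pdk1, which inhibits pyruvate dehydrogenase, differed by -0.70 ± 0.32 and was not called.

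The HIF-1 alpha gene and 1 of its hydroxylases rose at day 4. Hif1a read 7.03 and 7.44 in naive lung, 8.10, 8.17 and 8.54 at day 4, 8.07, 8.06 and 8.23 at week 2 and 7.16 and 7.57 at 4 months. In the node it read 7.97, 7.97 and 8.31 at day 4 and 7.92, 8.09 and 7.95 at week 2. Every day 4 and week 2 array of both tissues was above every naive and 4-month array. The rise was 1.03 ± 0.20 at day 4 (2.04-fold; adjusted p = 0.00277, limma), and at day 4 a further probe set named Hif1a had the same direction, with 6.23 and 6.04 in naive lung against 6.81, 6.79 and 7.38. Egln3, a prolyl hydroxylase that is itself induced by hypoxia, read 5.41 and 3.66 in naive lung, 6.13, 5.65 and 7.0 at day 4, 5.56, 5.25 and 5.59 at week 2 and 5.06 and 3.68 at 4 months. Node values were 5.71, 4.83 and 6.31 at day 4 and 6.08, 6.13 and 5.96 at week 2. The naive and 4-month pairs each held a far lower array, and the day 4 rise of 1.72 ± 0.50 (adjusted p = 0.0280, limma) was lost without naive replicate 2 and without day 4 replicate 1 or 3. Egln1, the main oxygen-sensing hydroxylase, spread from 6.52 to 8.07 within the naive group and was not called.

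Among the other hypoxia response genes, Ndrg1 rose and Ddit4 ran the opposite way. Ndrg1, a gene raised by hypoxia and other stresses, read 4.22 and 4.10 in naive lung, 5.66, 5.19 and 6.22 at day 4, 5.16, 4.96 and 5.33 at week 2 and 4.57 and 3.84 at 4 months. In the node it read 5.04, 5.62 and 5.12 at day 4 and 4.86, 4.98 and 4.66 at week 2. Every day 4 and week 2 array exceeded every naive and 4-month array. The day 4 rise was 1.53 ± 0.28 (2.88-fold; adjusted p = 0.00166, limma), but a dimmer probe set also named Ndrg1 read 4.58 and 5.14 in naive lung and 4.57, 4.66 and 5.70 at day 4, with overlap. Ddit4, also known as Redd1, an inhibitor of the growth kinase mTORC1, read 6.94 and 7.35 in naive lung, 5.87, 6.38 and 5.75 at day 4, 5.73, 5.67 and 5.55 at week 2 and 4.35 and 5.87 at 4 months. Its node values were 7.04, 6.81 and 5.73 at day 4 and 5.07, 6.09 and 6.42 at week 2. The naive arrays were above every other lung array, and the day 4 difference of -1.14 ± 0.44 was not called (adjusted p = 0.0868, limma). Vegfa, which drives vessel growth, rose by 0.59 ± 0.19 (adjusted p = 0.0474), a call that was kept in only 4 of the 16 fits that each left out 1 array. Bnip3, a mitophagy receptor, and P4ha1, a collagen hydroxylase subunit, were not called.

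**Figure D2:**
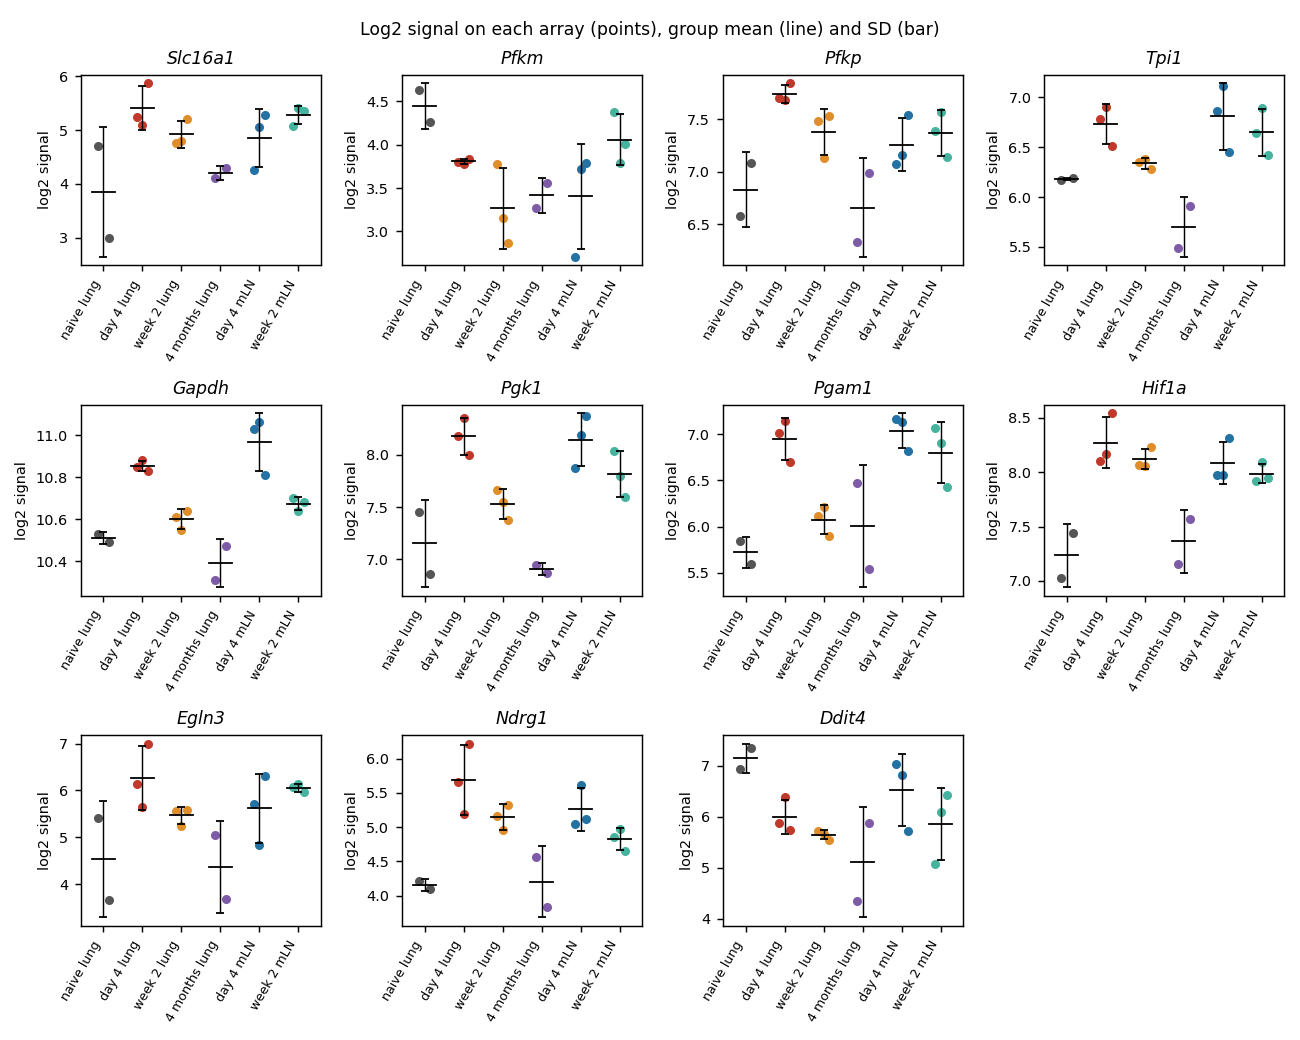
Log2 signal (vertical axis, a separate scale for each gene) on every array of the 6 groups, for members called with a log2 change of at least 1 in some comparison and for Gapdh and Hif1a. Points are arrays, lines are group means and bars are the SD. Hif1a and Ndrg1 were lower on the naive and 4-month arrays than on all others, and Ddit4 was higher on the naive arrays than on the other lung arrays.

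Macrophage markers moved with the day 4 comparison: 4 of 13 (Mrc1, Itgax, Chil3 and Fabp4) were called higher and 0 lower. T cell markers moved against it, with 6 of 9 called lower, as did natural killer and cytotoxic markers, with 3 of 9 called lower (Klrd1, Gzma and Eomes). When the 3 lung arrays highest in macrophage markers, named above, were left out, Hif1a and Ndrg1 were the 2 members called higher at day 4, beside 2.44% of all genes. That fit has 1 day 4 lung array, which is taken to vary like the other groups. The array that remained, day 4 replicate 3, had the highest value of the 3 for 14 of the 27 members and for 7 of the 8 measured hypoxia members, with Egln3 at 7.0 and Ndrg1 at 6.22. Its mean of the ILC2 markers, 9.66, was also the highest. The share of all genes that were highest on that array was not counted. The part of T cell and natural killer cell RNA in these differences was not tested. With quantile normalization repeated, which gives the naive arrays the same signal range as the others, 4 members were called higher (Hif1a, Ndrg1, Slc16a1 and Vegfa), beside 6.99% of all genes. With array weights 4 were called higher (Hif1a, Ndrg1, Pgam1 and Pgk1), beside 5.91% of all genes. Fitting the naive and day 4 lung arrays alone called 3 higher (Hif1a, Ndrg1 and Pgam1) and Ddit4 lower, beside 4.87% and 1.35% of all genes.

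At week 2, 2 members were called higher than in naive lung, Hif1a and Ndrg1, and 2 were called lower, Pfkm and Ddit4. Over all genes 6.75% were called higher and 2.87% lower, and in the brightest 25% 18.3% and 0.920%. With array medians set equal these shares over all genes were 8.15% and 2.02%, and the members called were Hif1a, Ndrg1 and Vegfa as higher and Pfkm as lower. Hif1a rose by 0.88 ± 0.20 (adjusted p = 0.0127, limma) and Ndrg1 by 0.99 ± 0.28 (adjusted p = 0.0355). With the mean of each gene's probe sets both calls were lost, at 0.59 (adjusted p = 0.0744, limma) for Hif1a and 0.48 (adjusted p = 0.247) for Ndrg1. The dimmer Hif1a probe set read 6.23 and 6.04 in naive lung and 6.53, 6.43 and 6.33 at week 2. The dimmer Ndrg1 probe set read 4.58 and 5.14 in naive lung and 4.9, 4.78 and 4.81 at week 2, with overlap. Pfkm fell by 1.18 on the log2 scale (SE 0.31, adjusted p = 0.0239) and Ddit4 fell by 1.49 (SE 0.44, adjusted p = 0.0431). All 3 week 2 values of Pfkm and of Ddit4 were below both naive values. Each of the 4 calls was lost when some array was left out: Hif1a without naive replicate 1, and Ndrg1 whichever of the 5 arrays compared was left out. In total 1 member was called without week 2 replicate 2 and 1 without week 2 replicate 3, and 2 without week 2 replicate 1. In the same order 5.06%, 5.14% and 4.89% of all genes were called in either direction, against 9.62% with all arrays. With array weights, and without the arrays highest in macrophage markers, 0 members were called at week 2. The T cell markers again differed, 5 of 9 being called lower at week 2. Klrd1 of the natural killer and cytotoxic markers and the dendritic cell marker Ccr7 were also lower. Of 7 lung epithelium and endothelium markers, Scgb1a1 was called higher, with 4.52 and 5.06 in naive lung and 11.02, 10.17 and 6.31 at week 2. The ILC2 markers Il5 and Il17rb were higher. The part of such RNA in the week 2 differences was not tested.

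**Figure D3:**
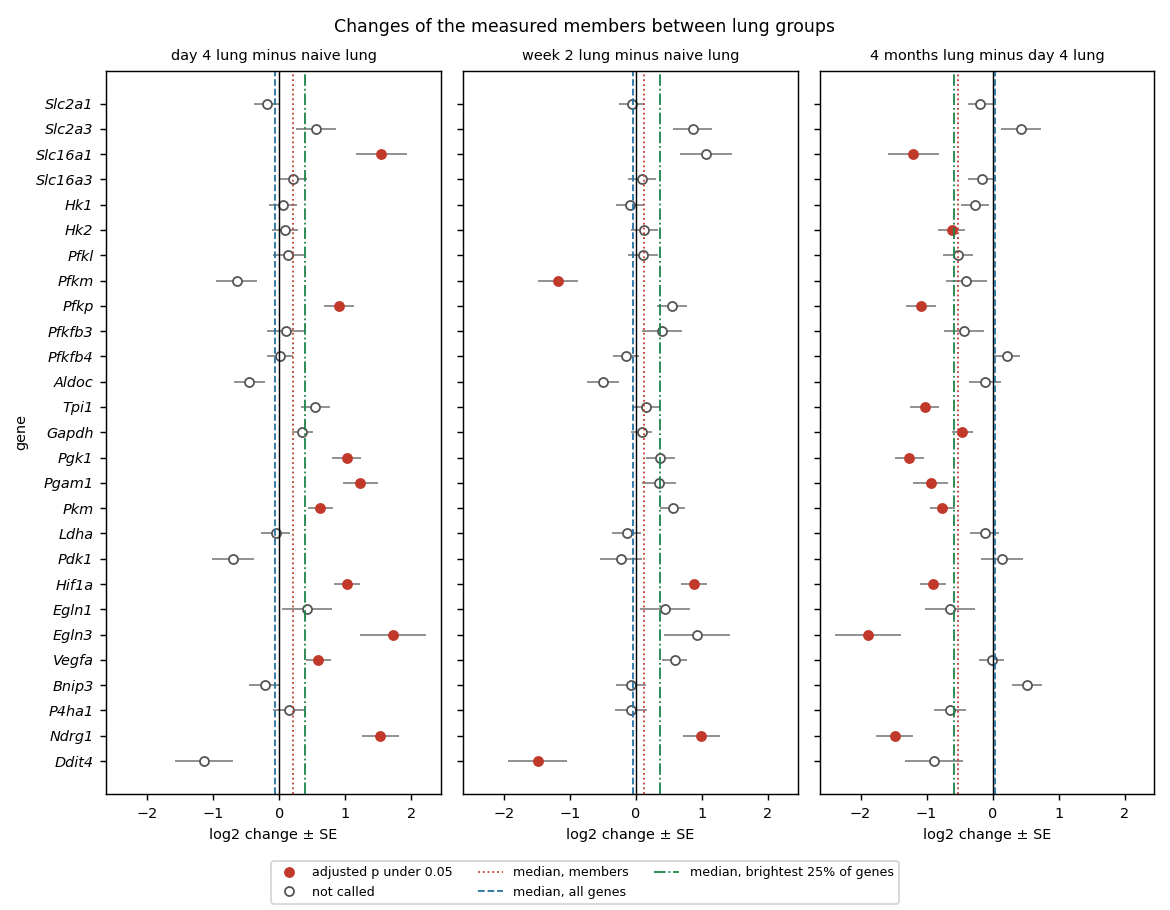
Log2 change with its standard error (horizontal axis) of each of the 27 members (vertical axis) in 3 lung comparisons. Filled points passed an adjusted p under 0.05, and dotted, dashed and dash-dotted lines mark the medians of the members, of all genes and of the brightest 25% of genes. The medians of the members lay at 0.21, 0.13 and -0.52, beside -0.06, -0.04 and 0.04 over all genes and 0.39, 0.37 and -0.59 over the brightest 25%.

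Between day 4 and week 2 in the lung, 0 members were called, against 1.81% of all genes, and 3 had an unadjusted p under 0.05 (limma). These were Pgam1 (-0.87 ± 0.23, adjusted p = 0.0739), Pgk1 (-0.64 ± 0.19, adjusted p = 0.131) and Ndrg1 (-0.54 ± 0.25, adjusted p = 0.41). All week 2 arrays were below all day 4 arrays for 7 members, where 11.9% of all genes showed that order, and above them for 1. Pgam1, Pgk1, Tpi1 and Gapdh were among the 7, as their array values above show. Pgam1 was called lower by fits of only the 2 groups or without the naive and 4-month arrays, and array weights called Pgam1 and Pgk1. Leaving out 4-month replicate 1 or 2 also gave 1 call. The macrophage markers had a median difference of -0.69 here, with Fabp4 called lower, and their part in the differences was not tested.

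At 4 months the lung ILC2s stood well below day 4, with 11 of the 27 members (40.7%) called lower and 0 higher. Over all genes 16.6% were called lower and 9.02% higher, and in the brightest 25% 45.8% and 2.40%. Setting array medians equal changed the shares over all genes to 20.7% lower and 5.08% higher, and called 12 members lower. Of the 11 brightest members 7 were called lower, and of the 16 dimmer ones 4, where 6.82% of the dimmer genes were. The members' median was -0.52, compared with -0.59 in the brightest 25% and 0.04 over all genes. All 4 lower glycolysis members other than Ldha fell. The largest fall was that of Egln3, by 1.89 on the log2 scale (SE 0.50, adjusted p = 0.0126, limma), followed by Ndrg1 (-1.48 ± 0.28, adjusted p = 0.00145) and Pgk1 (-1.26 ± 0.22, adjusted p = 7.57e-04). Slc16a1 (-1.20 ± 0.39), Pfkp (-1.08 ± 0.23), Tpi1 (-1.03 ± 0.22), Pgam1 (-0.94 ± 0.26), Hif1a (-0.90 ± 0.20), Pkm (-0.76 ± 0.19), Hk2 (-0.62 ± 0.20) and Gapdh (-0.46 ± 0.16) also fell. For all 11 the 4-month and day 4 arrays did not overlap, as was the case in this direction for 15 members and for 26.4% of all genes.

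The 4-month calls rested on 2 arrays that differed from each other. Without 4-month replicate 2 the calls of Egln3 (-1.20, adjusted p = 0.14, limma), Slc16a1 (-1.30), Hk2 (-0.65) and Pgam1 (-0.48) were lost, Egln3 no longer had the largest fall, and 10 members were called. Without 4-month replicate 1, the array with the lower value for Hif1a, Pfkp, Tpi1, Pkm and Gapdh, 4 members were called. Pgk1 and Ndrg1 stayed called whichever of the 16 arrays was left out. Without the arrays highest in macrophage markers 5 members were called (Egln3, Hif1a, Hk2, Ndrg1 and P4ha1), and Pgk1 was not among them. In this comparison 3 of the 13 macrophage markers were called lower and 5 of 9 natural killer and cytotoxic markers higher, and the part of the latter was not tested. Of the ILC2 markers, Il13, Klrg1, Il17rb and Kit were called lower and Il2ra higher. The lung epithelium and endothelium markers Scgb1a1 and Pecam1 and the T cell marker Cd3g were lower, and the B cell marker Ms4a1 was higher. Their part was not tested either. Quantile normalization repeated gave 6 calls (Egln3, Ndrg1, Pfkp, Pgk1, Slc16a1 and Tpi1). The share of all genes called in these altered fits is not set beside the counts. The lost calls are therefore not read as particular to the members.

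Compared with week 2, 5 members were called lower at 4 months: Hif1a (-0.76 ± 0.20), Pkm (-0.71 ± 0.19), Ndrg1 (-0.94 ± 0.28), Hk2 (-0.65 ± 0.20) and Pfkp (-0.72 ± 0.23), with adjusted p from 0.0199 to 0.0470 (limma). Over all genes 11.5% were called lower and 4.85% higher, and in the brightest 25% 35.1% and 0.812%. With array medians set equal the shares over all genes were 16.3% and 3.10%. With the mean of each gene's probe sets the calls of Hif1a (-0.55) and Ndrg1 (-0.73) were lost. Hk2, the inducible hexokinase, ranged from 5.28 to 5.96 over the 6 treated lung arrays of day 4 and week 2 and read 4.86 and 4.93 at 4 months. Leaving out week 2 replicate 1 gave 2 calls, and leaving out week 2 replicate 2 or 3 or 4-month replicate 1 gave 1 each. With array weights or with only the 2 groups fitted, 0 members were called, beside 5.39% and 7.76% of all genes in either direction. The share of all genes is not set beside the counts from fits that left out 1 array, so these are not read as particular to the members. Among the cell type markers in this comparison, Klrb1c and Prf1 of the 9 natural killer and cytotoxic markers were called higher. The B cell marker Cd79b and the dendritic cell marker Ccr7 were also higher. The T cell marker Cd3g, the lung epithelium and endothelium markers Scgb1a1 and Cldn5, and the ILC2 markers Il17rb and Kit were called lower. Of the macrophage markers 0 of 13 were called. The part of all these markers in the differences was not tested.

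Compared with naive lung, the 4-month cells differed in 1 member, Ddit4, which fell by 2.04 on the log2 scale (SE 0.48, adjusted p = 0.0389, limma). Over all genes 1.25% were called lower and 0.717% higher. The call was lost in 8 of the 16 fits that each left out 1 array, naive replicate 2 and 4-month replicate 1 among them. The glucose carrier Slc2a3 (0.99 ± 0.33, adjusted p = 0.119) and Vegfa (0.58 ± 0.21, adjusted p = 0.169) were the 2 members with all 4-month values above all naive ones, and 9 members had all of them below. These 11 of 27 members stand beside 34.6% of all genes whose groups did not overlap in either direction. Hif1a differed by 0.13 ± 0.22 and Ndrg1 by 0.04 ± 0.31 between these groups. T cell markers were called lower for 4 of 9, and whether T cell RNA on the naive arrays bears on Ddit4 was not tested.

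**Figure D4:**
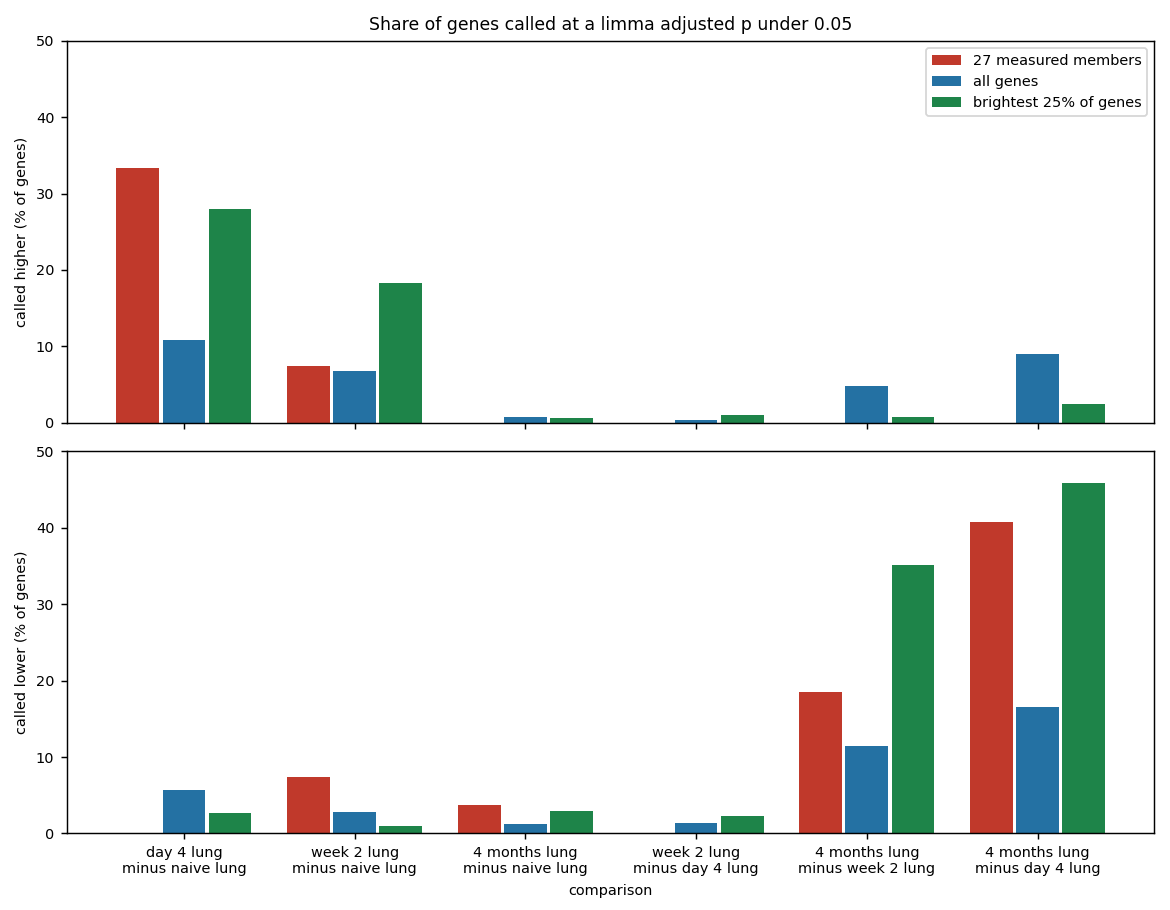
Share of genes called higher (upper panel) and lower (lower panel), in percent, for the 27 members, all 22180 genes and the brightest 25% of genes, in each of the 6 lung comparisons. The members' share at day 4 (33.3%) was above that of all genes (10.8%) and stood beside 28.0% in the brightest 25%, and at 4 months against day 4 it was 40.7% beside 16.6% and 45.8%.

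The rise at day 4 and the fall at 4 months share the day 4 lung arrays, which enter with opposite sign, so they are not independent. For Pgk1 the changes side by side were 1.02 (day 4 against naive) and -1.26 (4 months against day 4), for Hif1a 1.03 and -0.90, and for Ndrg1 1.53 and -1.48. All 30 calls among the 270 member and comparison pairs came from comparisons with the naive or the 4-month arrays. Over all genes 1.97% to 25.6% were called in those comparisons and 0.180% to 2.33% in the others, so most calls of all genes came from them too. At least 1 call was found for 14 of the 27 members, and the same share over all genes was not counted.

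Between the node and the lung, 0 members were called at day 4, against 2.33% of all genes, and 0 at week 2, against 0.780%. In each of these limma comparisons 4 members had an unadjusted p under 0.05. The largest difference was that of Pdk1, which read 5.95, 6.03 and 6.15 in the day 4 node and 5.25, 5.28 and 4.66 in the day 4 lung (0.98 ± 0.29, adjusted p = 0.103). It was called higher with array weights or with only those 2 groups fitted. A further probe set named Pdk1 read 6.06, 5.30 and 5.18 in the day 4 node and 5.29, 5.42 and 5.32 in the day 4 lung. Its groups overlapped, so that the gene is uncertain. Vegfa (-0.54 ± 0.17), Pfkfb4 (-0.52 ± 0.18) and Pfkp (-0.48 ± 0.21) were lower in every day 4 node array than in every day 4 lung array without being called. Slc2a1 (-0.15 ± 0.17) was the only other member with this order, which 8.98% of all genes showed. At week 2 the unadjusted differences were those of Pfkm (0.79 ± 0.27), Pdk1 (0.79 ± 0.29), Pgam1 (0.73 ± 0.23) and Pfkfb4 (-0.40 ± 0.18). The further Pdk1 probe set read 5.76, 6.14 and 5.98 in the week 2 node and 5.71, 5.62 and 5.57 in the week 2 lung. With array medians set equal the split over all genes at week 2 was 0.442% higher and 0.352% lower, and otherwise 0.334% and 0.446%. The node arrays had the lowest macrophage marker means, 3.35 to 3.73 at day 4 and 3.42 to 3.50 at week 2.

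Within the node 0 members were called between day 4 and week 2, against 1.71% of all genes, and 5 had an unadjusted p under 0.05 (limma). These were Slc2a1 (0.44 ± 0.17), Ldha (0.42 ± 0.19), Vegfa (0.43 ± 0.17), Pfkm (0.65 ± 0.27) and Slc16a3 (-0.41 ± 0.19). The change from day 4 to week 2 was tested for a difference between tissues, and 0 members were called, against 0.180% of all genes. The member with the lowest unadjusted p was Pfkm (1.19 ± 0.39, adjusted p = 0.407, limma), which was lower at week 2 than at day 4 in lung and higher in node. A p that misses the threshold does not show that the tissues are alike. Pgk1 at day 4 differed by -0.03 ± 0.19 between node and lung and Hif1a by -0.18 ± 0.18.

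**Figure D5:**
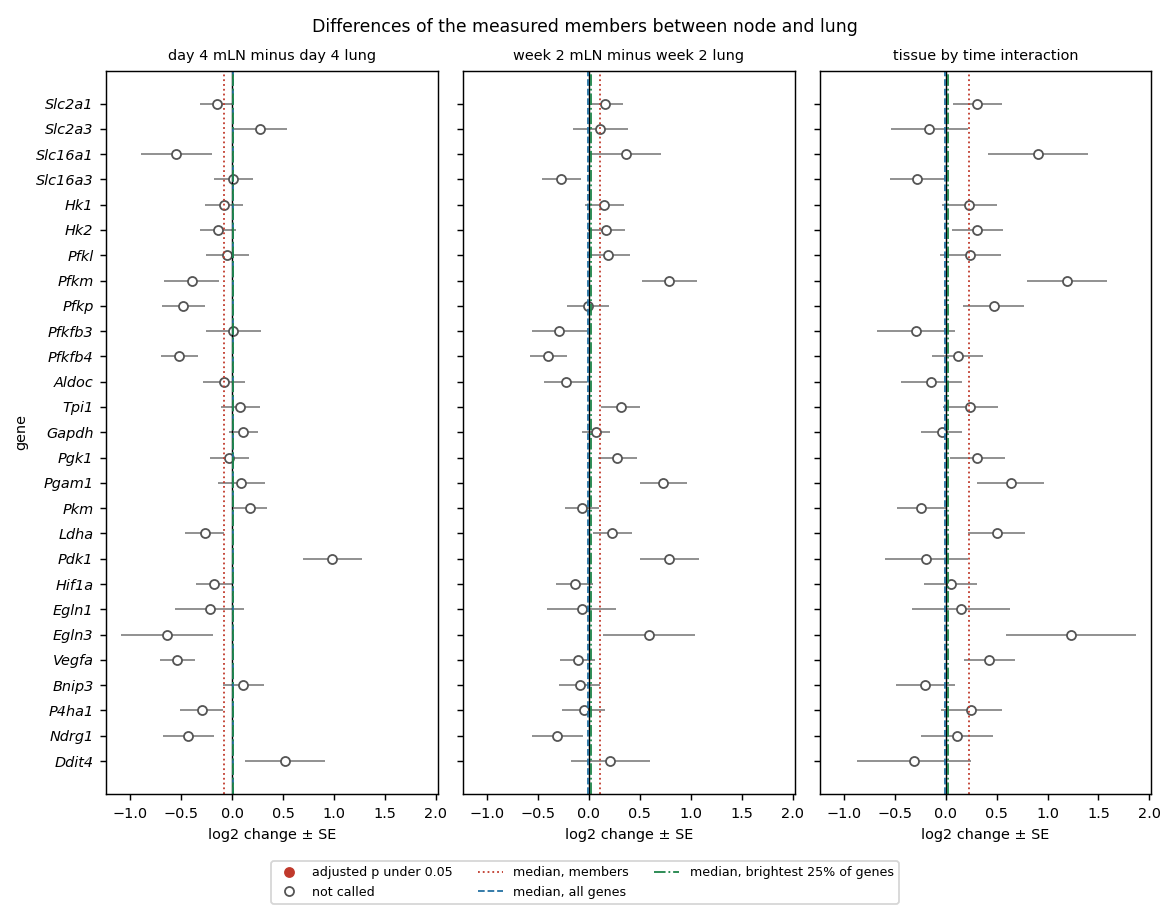
Log2 difference with its standard error (horizontal axis) of each of the 27 members (vertical axis) between node and lung at day 4 and at week 2, and the difference between the tissues in the change from day 4 to week 2. Open points did not pass an adjusted p under 0.05, and 0 of the members passed in any panel. Pdk1 had the largest difference at day 4, 0.98.

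The members did not move as 1 unit. Over the 16 arrays, Pearson's r of a member with the mean of the other 26 was highest for Pgk1 (0.83), Pkm (0.81) and Tpi1 (0.78), and lowest for Pfkfb4 (-0.53) and Bnip3 (-0.52). Arrays of a group, and the signal range that sets the naive and 4-month arrays apart, are shared by these points. Over the 12 day 4 and week 2 arrays alone the order changed, with Slc16a1 (0.69), Pfkp (0.56) and Egln3 (0.53) highest, while Pgk1 was 0.43, Tpi1 0.18 and Pkm -0.11.

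Other genes of these pathways were also counted, from lists chosen with earlier results of these data known. Of 29 measured other genes of glycolysis and glucose use (35 listed), 4 were called higher at day 4 against naive lung and 0 lower, beside 10.8% and 5.73% of all genes. Fbp1, an enzyme of gluconeogenesis, rose by 2.75 ± 0.61 (adjusted p = 0.00588, limma), with 3.71 and 3.44 in naive lung and 7.69, 6.98 and 4.31 at day 4. Its highest arrays were the pair highest in macrophage markers, and the call was lost without them. Of 41 measured further genes of the HIF pathway and hypoxia response (45 listed), 9 were called higher and Lox lower, beside the same shares of all genes and 28.0% called higher in the brightest 25%. Epas1, which encodes HIF-2 alpha, rose by 1.63 ± 0.21 (adjusted p = 1.20e-04), from 6.61 and 6.81 in naive lung to 8.31, 8.08 and 8.64 at day 4. Epas1 stayed called whichever array was left out, and without the arrays highest in macrophage markers. Mxi1, a MYC antagonist (1.78 ± 0.43), Cdkn1a, a cell cycle inhibitor (1.76 ± 0.38), Eloc, a subunit of the complex that degrades HIF (1.34 ± 0.32), and Nampt, an enzyme of NAD synthesis (1.31 ± 0.30), also rose. Without naive replicate 1 the calls of Mxi1 and Eloc were lost, with differences of 1.09 and 0.70, and without naive replicate 2 that of Nampt was lost (0.95). The calls of Eloc and Nampt were also lost without the arrays highest in macrophage markers.

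The same HIF list was called higher for 7 and lower for 0 of 41 genes at week 2 against naive lung, Epas1 (1.20 ± 0.21) among them, where 6.75% and 2.87% of all genes were called. At 4 months it was called lower for 12 and higher for 2 (Stc2 and Selenbp1) against day 4, beside 16.6% and 9.02% of all genes and 45.8% and 2.40% of the brightest 25%. Epas1 fell by 2.03 on the log2 scale (SE 0.21, adjusted p = 1.54e-05, limma), to 6.13 and 6.50. Eloc fell by 2.72 (SE 0.32), to 3.87 and 3.92. In the day 4 node against the day 4 lung 2 of the 41 were called lower, Cdkn1a (-2.43 ± 0.34) and Rragd (-0.86 ± 0.21), beside 1.35% of all genes. The Rragd call was lost in 7 of the 16 fits that each left out 1 array, with a replicate block, with array medians set equal, with only those 2 groups fitted and without the arrays highest in macrophage markers (-0.44). Of the other glycolysis genes 3 of 29 were called lower there: Fbp1, the glucose carrier Slc2a6 (-1.04 ± 0.20) and the neuronal enolase Eno2 (-1.03 ± 0.19). The calls of Fbp1 and Eno2 were lost without the arrays highest in macrophage markers. Cdkn1a read 6.12, 6.20 and 7.48 in the day 4 node and 9.13, 9.02 and 8.61 in the week 2 node, a rise of 2.32 ± 0.34 (adjusted p = 5.94e-04). Epas1 read 8.48, 8.07 and 8.57 in the day 4 node and 8.62, 8.56 and 8.95 in the week 2 node, above both naive lung arrays on every array.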

How the data were processed

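The values are log2 signals that the authors made from single-colour Affymetrix arrays with Expression Console and RMA and deposited, per the submitters' processing notes. RMA corrects background, gives all arrays the same distribution of probe signals and summarises the probes of a set. Versions and genome build were not given in the sources used here. RMA hides a change in total RNA per cell. Per the labels' protocols, Trizol was used for the extraction and a Nugen Encore biotin kit for the labelling.

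Of 41345 probe sets, 23521 had 1 gene symbol in the platform annotation, 1814 several and 16010 none. Only those with 1 symbol were used to name a gene, and 23328 of them matched the gene table by Entrez identifier. For 1082 genes with more than 1 probe set the one with the highest mean was used, which left 22180 genes. Group means of all 16 arrays were fitted in 1 model (limma 3.58.1, R 4.3.3), which had 10 residual and 6.52 prior degrees of freedom and no filter or block, for 10 comparisons. P-values are two-sided and Benjamini-Hochberg adjusted over all genes of a comparison. The procedure was tested on simulated data. The brightest 25% are the 5545 genes with a mean of at least 5.84.

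All measured members are named. Values on every array are given for members called with a log2 change of at least 1, and for Gapdh and Hif1a. For the other pathway genes, changes are given for at most 6 called genes per comparison, those with the largest changes over all lists. Further called genes of these lists, and the called cell type markers, were named after their values were seen. The further genes were Lox, Stc2, Selenbp1, Pdp2, Pdha1, Pdk3, Prkaa1, Rheb, Txnip and Dld, in comparisons where they were not among the 6. The members and lists were chosen with earlier results of these data known. Same-numbered replicates of different groups deviated from their group means with correlations from -0.104 to 0.184 over 36 pairs, so the numbers were not taken to pair samples. For lung and node of the same time point the range was 0.028 to 0.184 at day 4 and 0.012 to 0.028 at week 2. At each of these times 2 of 3 replicates matched best with their own number, so whether lung and node were paired is not settled. Promoters are from RefSeq. The plots were made in Python 3.11.15 using matplotlib 3.10.9. The number of arrays limits the precision.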

Additional observations from a re-analysis of the deposited data

How the results depend on the processing

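Counts of members called are given here beside the count of the model described above. No direction of a called member reversed. The share of all genes called in either direction moved too. For day 4 against naive lung it was 16.6% in that model and 7.34% with array weights. It was 6.22% with only the groups compared and 11.1% with repeated quantile normalization. For week 2 against naive the shares in the same order were 9.62%, 3.28%, 2.37% and 5.22%. For 4 months against week 2 they were 16.4%, 5.39%, 7.76% and 6.41%. With array weights the counts were 4 (instead of 9) for day 4 against naive lung, 0 (4) for week 2 against naive, 0 (1) for 4 months against naive, 2 (0) for week 2 against day 4 lung, 0 (5) and 7 (11) for 4 months against week 2 and day 4, and 1 (0) and 2 (0) for node against lung at day 4 and week 2. With only the groups compared in the fit they were, in that order, 4, 2, 0, 1, 0 and 8, and 1 for node against lung at day 4. Repeated quantile normalization gave 4 at day 4 against naive, 1 for 4 months against week 2 and 6 for 4 months against day 4. Averaging the probe sets of a gene gave 2 for week 2 against naive and 3 for 4 months against week 2. A required log2 change of 1 gave 2, 0 and 6 for week 2 against naive, 4 months against week 2 and 4 months against day 4. Setting array medians equal and leaving out dim genes (26 members kept) moved no count by more than 1.5 times, but equal medians moved the median change of all genes from 0.04 to -0.10 for 4 months against day 4.

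With the replicate number as a block the counts were 8 at day 4 against naive, 1 for week 2 against day 4 lung (Pgam1), 3 for 4 months against week 2 and 10 for 4 months against day 4. A replicate block within each time point, a pairing the data did not settle, gave 1 for node against lung at week 2 (Pgam1). Leaving out each array in turn gave 5 to 10 for day 4 against naive, 1 to 5 for week 2 against naive, 0 to 1 for 4 months against naive, 0 to 1 for week 2 against day 4 lung, 1 to 8 and 4 to 12 for 4 months against week 2 and day 4, and 0 to 1 for node against lung at each time point. It gave 0 throughout for the node over time and for the interaction. Where 1 array was left in a group it was taken to vary like the other groups.

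The next alternatives were chosen after seeing the data. Without the 3 lung arrays highest in macrophage markers the counts were 2 at day 4 against naive, 0 for week 2 and 0 for 4 months against naive, and 1 and 5 for 4 months against week 2 and day 4. Without the naive and 4-month arrays 1 member was called for week 2 against day 4 lung. The cause of each shift was not tested.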

Other observations

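The steps that carry pyruvate into mitochondria and the sensors of glucose and energy were also read from lists chosen with earlier results of these data known. Of 11 measured genes of pyruvate entry (12 listed), 2 were called higher at day 4 against naive lung, Dld and Pdp2, and 1 at week 2, Dld, while 10.8% and 6.75% of all genes were called higher (limma). Dld, the shared dihydrolipoamide dehydrogenase subunit, read 6.10 and 6.44 in naive lung, 7.55, 7.46 and 7.57 at day 4 and 7.64, 7.71 and 7.37 at week 2, so that the naive arrays were below the others. It rose by 1.30 ± 0.21 at week 2 (adjusted p = 0.00125). At 4 months it read 6.54 and 7.11, and 3 of the 11 genes were called lower than at day 4 (Pdha1, Dld and Pdk3), beside 16.6% of all genes and 45.8% of the brightest 25%.

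Of 18 glucose sensing and energy regulator genes, 2 were called higher at day 4 against naive lung (Prkaa1, a catalytic subunit of the energy sensor AMPK, and Rheb, an activator of mTORC1) and Txnip was called lower, beside 10.8% and 5.73% of all genes. Txnip, which is induced by glucose and restrains its uptake, read 9.95 and 10.60 in naive lung, 9.23, 9.47 and 8.59 at day 4 and 10.24, 10.36 and 10.39 at week 2. All day 4 values were below all naive and week 2 values. Txnip rose by 1.23 ± 0.27 from day 4 to week 2 in the lung (adjusted p = 0.0224, limma), as did Myc by 0.78 ± 0.18 (adjusted p = 0.0341). The Txnip call was lost in 5 of the 16 fits that left out 1 array and the Myc call in 6, both were lost without the arrays highest in macrophage markers, and the Myc call also with array medians set equal. Rheb fell by 1.74 on the log2 scale from day 4 to 4 months (SE 0.23, adjusted p = 7.84e-05, limma).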
